A study of Mus musculus with 9 samples.

Results

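The regions described here are distal H3K27ac peaks at which the acetyltransferase p300 was not called. They were the distinct peaks of the H3K27ac list on the autosomes, X and Y that shared no base pair with a peak of the p300, N-MYC, H3K4me3, SUZ12 or H3K27me3 lists and lay more than 2500 bp from both ends of every RefSeq gene. The peaks were thus chosen by the calls of 6 lists (H3K27ac present, the others absent) and by distance to genes. The rule found 49583 of the 87072 H3K27ac peaks (56.9%). The peaks came from thymic tissue of C57BL/6J mice carrying MYCN-driven T cell lymphoma cells, profiled by ChIPmentation, in which a transposase adds sequencing adapters to chromatin still bound to the antibody. The libraries were those of a rabbit polyclonal antibody to H3K27ac, rabbit monoclonal antibodies to p300, H3K4me3, H3K27me3, EZH2 and SUZ12, and a mouse polyclonal antibody to MYCN (the library labelled N-MYC-CST), with 1 library per antibody, and 2 input libraries were not analysed here. The promoter or recombinase that drives MYCN, the age of the mice and the number of animals behind each library are not given in the sources used here. With 1 library per antibody there was no test between antibodies, and every 95% interval below is a Wilson interval for a share or an order-statistic interval for a median, covers counting error only and treats neighbouring peaks as independent.

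H3K27ac is an acetyl mark on histone H3 found at active promoters and enhancers, the latter being distant elements that raise transcription of genes on the same chromosome. It is written by p300 and its close relative CBP, and p300 binding away from promoters is widely used to locate enhancers. In developing T cells such elements lie around genes for lineage factors such as RUNX1, TCF1 and BCL11B, and many sit inside introns of the genes they act on or of neighbouring genes.

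Labels were checked at marker genes, read as peaks within 1000 bp of a gene end. All 8 T-cell markers (Cd3e, Cd3d, Cd3g, Cd247, Lck, Tcf7, Bcl11b and Thy1) had both H3K27ac and H3K4me3. Of 6 B-cell markers 3 had H3K27ac and 2 had H3K4me3 (Cd79a and Cd79b had both), and of 6 myeloid markers 3 had H3K27ac and 2 had H3K4me3, on different genes. H3K27ac was present at 2 of 7 markers of thymic epithelium and stroma and H3K4me3 at 1 (Epcam). Of 3 erythroid markers, 3 had H3K27ac and 2 had H3K4me3 (Klf1 and Hba-a1). The part of other cells in the peaks described below was not tested.

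By the rule these peaks lay more than 2500 bp from every RefSeq gene end. Even so, 164 of them (0.331%, 0.284 to 0.385%) reached an additional RefSeq start that lies away from the gene's annotated ends, which the rule did not use. They overlapped 165 of 32851 RefSeq start windows (250 bases before to 50 after a start), of which 127 belonged to 112 protein-coding genes. The 164 peaks had a median width of 610.5 bp (504 to 794 bp) and a median fold enrichment of 4.24 (4.04 to 4.59), against 352 bp (350 to 355 bp) and 3.82 (3.81 to 3.84) for the other 49419. A wider peak is more likely to overlap any window, and wider peaks were also stronger, so these values describe what the overlap selected. Fold enrichment is the authors' own value for the peak, a linear ratio over the background of the peak caller. The 4 sequences below are the stretches of 250 bases before such a start that lie wholly inside the strongest of these peaks at protein-coding genes, and they show which letters an intragenic H3K27ac peak without p300 or H3K4me3 covers. Capitals mark every match to the 8 short motifs searched, on either strand. Sequences are from RefSeq, build GRCm38.p6.

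Tspan14: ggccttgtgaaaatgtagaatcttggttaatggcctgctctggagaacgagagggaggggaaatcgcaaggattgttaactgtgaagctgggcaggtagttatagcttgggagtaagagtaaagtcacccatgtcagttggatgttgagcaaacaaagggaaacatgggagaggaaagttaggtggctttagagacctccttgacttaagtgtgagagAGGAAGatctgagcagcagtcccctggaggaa

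Zmynd8: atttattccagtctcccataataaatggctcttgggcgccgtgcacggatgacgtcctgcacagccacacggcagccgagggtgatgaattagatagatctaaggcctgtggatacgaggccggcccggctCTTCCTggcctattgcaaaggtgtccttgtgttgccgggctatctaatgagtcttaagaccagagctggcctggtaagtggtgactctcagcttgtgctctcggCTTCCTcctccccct

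Slc45a3: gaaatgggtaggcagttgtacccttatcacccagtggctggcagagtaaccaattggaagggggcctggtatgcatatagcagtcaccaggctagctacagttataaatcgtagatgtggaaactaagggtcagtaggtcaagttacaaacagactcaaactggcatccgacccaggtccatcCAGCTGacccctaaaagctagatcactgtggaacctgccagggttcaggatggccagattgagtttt

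Cnr2: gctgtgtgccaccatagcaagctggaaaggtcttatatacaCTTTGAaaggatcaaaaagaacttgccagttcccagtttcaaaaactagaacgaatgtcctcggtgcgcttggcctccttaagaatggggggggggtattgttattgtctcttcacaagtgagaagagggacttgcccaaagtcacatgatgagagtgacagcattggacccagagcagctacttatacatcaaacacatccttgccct

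The stretch at Tspan14, which encodes a membrane tetraspanin, is chr14:40948210-40948459 (minus strand) and lies in a peak of 4360 bp with a fold enrichment of 10.8. Its capitals are 1 match to the ETS letters AGGAAG. At Zmynd8, a chromatin reader, the stretch is chr2:165858174-165858423 (minus strand) in a peak of 4964 bp (fold enrichment 9.07), with 2 ETS matches on the opposite strand. At Slc45a3, a solute carrier, it is chr1:131970359-131970608 (plus strand) in a peak of 1630 bp (7.90), with 1 match to the E-protein letters CAGCTG. At Cnr2, the cannabinoid receptor of immune cells, it is chr4:135911430-135911679 (plus strand) in a peak of 1596 bp (7.71), with 1 match to the TCF1 letters CTTTGA. The nearest p300 peak was 4103, 24748, 35424 and 8048 bp away from these 4 peaks, in the same order.

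Over the 165 start windows of 300 bases, the RUNX letters TGTGGT were present in 27.3% (21.1 to 34.5%), against 16.8% of all 32851 windows and 11.8% of the 11921 windows that overlapped H3K4me3. The AP-1 letters TGANTCA were present in 13.9% (9.47 to 20.05%), against 7.81 and 3.97%, and the CTCF core CCACTAG in 6.06% (3.32 to 10.8%), against 2.68 and 2.58%. CAGCTG was present in 23.6% (17.8 to 30.7%), against 16.3 and 13.7%. For the ETS letters, the TCF1 letters and the letters AGATAA, which are bound by factors such as GATA3, the shares were 42.4% (35.1 to 50.1%), 19.4% (14.1 to 26.1%) and 14.5% (9.97 to 20.7%), against 35.4, 16.0 and 11.2% of all windows, values that lie inside these intervals. On H3K4me3 they were 32.1, 10.97 and 5.58%, below the intervals. The E-box CACGTG, the letters bound best by MYC and MAX, was present in 3.03% (1.30 to 6.90%), against 7.15% of all windows and 10.7% of those on H3K4me3. All 8 motifs were searched on both strands, and a match is a description of letters. A window was counted whole when a peak covered only part of it, as with 69 of 300 bases at 1810058I24Rik. A counted match can therefore lie outside the peak. The windows differed in base composition, with a mean GC content of 51.4% and 4.66 CpG per window, against 53.8% and 12.4 over all windows and 62.1% and 23.1 on H3K4me3, and its part in these shares was not tested.

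The peaks were narrower and weaker than distal H3K27ac peaks with p300 and than those on H3K4me3. Their median width was 353 bp (350 to 355 bp), with a 5th percentile of 200 bp, which is also the smallest width in the list, a 95th percentile of 1739 bp and a maximum of 18017 bp. The median fold enrichment was 3.83 (3.81 to 3.85), with 5th and 95th percentiles of 2.68 and 6.71 and a maximum of 17.6. Distal H3K27ac peaks chosen in the same way but overlapping p300 numbered 850, and had a median width of 2366 bp (2204 to 2531 bp) and a median fold enrichment of 8.81 (8.44 to 9.14). H3K27ac peaks on H3K4me3, the promoter type, numbered 15999 and had medians of 1593 bp and 9.26. Over all H3K27ac peaks, of which these peaks are the larger part, the medians were 414 bp and 4.04. Peaks wider than 2000 bp made up 3.78% (3.62 to 3.96%) of the distal peaks without p300, against 59.8% (56.4 to 63.0%) of those with it. Since calls in several lists tend to go with the strength of a site, these values describe what the rule selected.

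**Figure D1:**
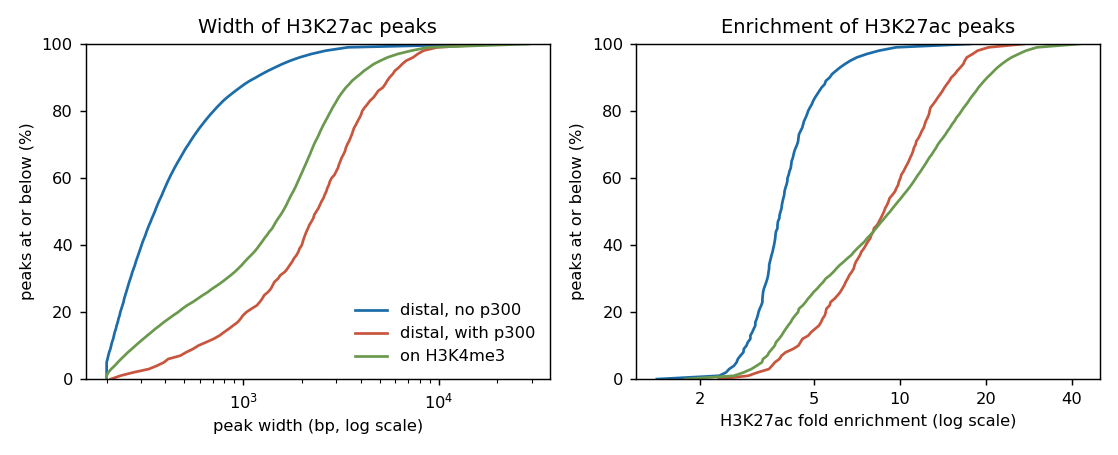
Cumulative share of H3K27ac peaks (vertical axis, %) by peak width in bp (left, log scale) and by the authors' fold enrichment (right, log scale), for 49583 distal peaks without p300 (blue), 850 distal peaks with p300 (red) and 15999 peaks on H3K4me3 (green). The blue curve lies to the left in both panels, with medians of 353 bp and 3.83 against 2366 bp and 8.81 for distal peaks with p300.

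Calls of p300 were rare except at the strongest distal H3K27ac peaks. Peaks without p300 made up 98.3% of the 50433 distal peaks off the other 4 lists. In deciles of H3K27ac fold enrichment, p300 was called at 0.159% (0.0804 to 0.313%) of the weakest and 0.258% (0.151 to 0.441%) of the sixth decile, then at 1.65% (1.33 to 2.04%) of decile 9 and 12.9% (12.0 to 13.9%) of decile 10. In the strongest decile (fold enrichment of 5.84 and above), 87.1% (86.1 to 88.0%) still lacked p300, and among the 504 strongest peaks (11.1 and above) 45.2% (40.9 to 49.6%) lacked it. Within decile 10 the peaks without p300 had a median width of 1437.5 bp and a median fold enrichment of 6.92, against 2835 bp and 10.3 for the 651 with p300. The p300 list held fewer peaks than the H3K27ac list and its depth is unknown, so a missing call does not show that p300 was absent.

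**Figure D2:**
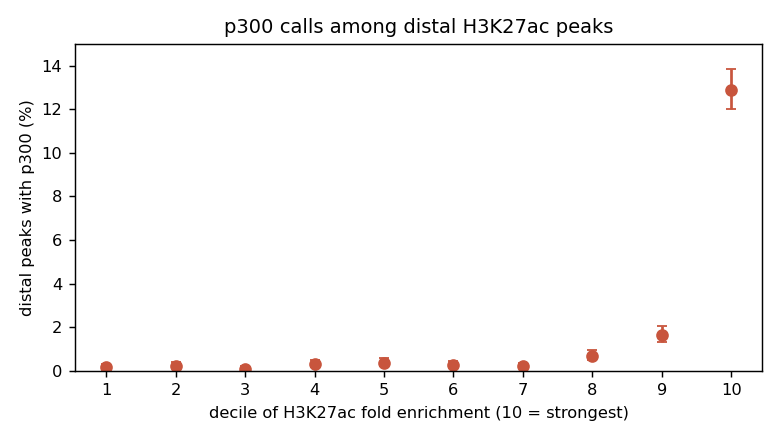
Share of distal H3K27ac peaks that overlapped p300 (vertical axis, %, with 95% Wilson intervals) by decile of H3K27ac fold enrichment (horizontal axis, about 5043 peaks per decile). The share stays under 1% through decile 8 and reaches 12.9% in decile 10.

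Width went with strength, while distances to other marks hardly did. From the weakest to the strongest decile the median width of peaks without p300 went from 285 to 1437.5 bp, with a minimum of 263 bp in decile 3. The share inside protein-coding genes went from 68.5 to 61.1% over the same range. The share within 12.5 kb of an H3K4me3 peak lay between 34.3 and 36.2% in all 10 deciles, and the median distance to the nearest p300 peak between 19898.5 and 20910.5 bp.

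The peaks of highest fold enrichment lay near genes of varied function. The strongest, chr7:80413093-80421511 (8419 bp, fold enrichment 17.6), lay outside genes, 7652 bp from an end of Furin, which encodes a proprotein-cleaving protease. The next was chr11:88626602-88630542 (3941 bp, 17.1) inside Msi2, an RNA-binding protein of blood stem cells. A peak of 2451 bp lay inside Vamp5, a vesicle fusion protein (17.0), and a peak of 4979 bp inside Slc12a3, a sodium chloride transporter (17.0). These 4 had p300 peaks at 4404 to 11844 bp.

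The widest peaks all lay inside genes. The widest was chr8:122307399-122325415 (18017 bp, fold enrichment 9.83) in Zfpm1, which encodes the GATA cofactor FOG1. It was followed by peaks of 16945 bp in Nprl3 (5.84), a regulator of mTORC1 whose introns carry the alpha-globin enhancers, 16881 bp in Mvb12b (7.11), 13540 bp in the kinase gene Pak4 (7.47) and 13220 bp in Gse1 (4.39). Their fold enrichments were below those of the strongest peaks.

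At the limits the rule set, peaks on both sides had similar medians. The 2496 peaks with a gene end just beyond 2500 bp and up to 3000 bp away had a median width of 346 bp, a median fold enrichment of 3.78 and 56.3% inside protein-coding genes. The 2794 peaks left out at 2000 to 2500 bp had 335 bp, 3.81 and 54.7%. Just inside the rule, at 2501 bp from a RefSeq gene end, were peaks assigned to Mmp14 (fold enrichment 4.77), Hhat (4.09) and Mink1 (3.81). Just outside, at 2500 bp, were peaks assigned to Gm5785 (6.60), Ifnar2 (6.11) and Pitpnc1 (5.23). Only for Mmp14 was the end at that distance one of the assigned gene itself. The 47 peaks within 100 bp of a p300 peak had a median fold enrichment of 4.74, and the 40 distal peaks that overlapped p300 by 100 bp or less had 4.69.

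Inside protein-coding genes lay 32678 peaks, or 65.9% (65.5 to 66.3%), by their midpoints. The share was 63.4% (60.1 to 66.6%) for distal peaks with p300 and 64.3% (64.0 to 64.7%) for all H3K27ac peaks, of which 56.6% (56.3 to 56.9%) lay wholly inside a gene. The peaks described here cannot cross a gene end, so their share was the same by both definitions. The difference from the distal peaks with p300 was 2.49 percentage points, with a Newcombe interval from -0.70 to 5.81 points that includes 0. A further 5.67% of the peaks without p300 (5.47 to 5.88%) lay inside a lncRNA gene and no protein-coding gene, and 28.0% (27.6 to 28.4%) lay in no RefSeq gene. The median distance to the nearest protein-coding gene end was 18812 bp (18537 to 19076 bp), against 20302 bp (18756 to 22423 bp) for distal peaks with p300. A gene end lay within 10000 bp for 31.0%, at 10000 to 50000 bp for 48.0%, at 50000 to 100000 bp for 12.2%, at 100000 to 500000 bp for 8.68% and farther away for 90 peaks. Of 13317 peaks outside protein-coding genes whose assigned gene had a strand, 58.6% (57.8 to 59.5%) lay on the upstream side.

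Of the 5 peaks farthest from any gene, 4 had a fold enrichment above 10. The farthest pair, of 1270 bp (fold enrichment 10.4) and 311 bp (4.44), lay 570370 and 556183 bp from the nearest RefSeq gene end, on chromosome 1 on the side of Kcnt2, a potassium channel gene. A pair on chromosome 9 (13.4 and 10.5) lay 320380 and 317737 bp away, on the side of Cntn5, a neuronal contactin. A peak on chromosome 2 (12.0) lay 312150 bp away, with Dhx35, an RNA helicase gene, as the nearest protein-coding gene. The nearest H3K4me3 peak was 12873 and 637 bp from the pair on chromosome 1, against 655160 to 1396535 bp from the peaks on chromosomes 2 and 9.

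To see which genes held the peaks, protein-coding genes were divided by the marks at their RefSeq starts. Of 21887 such genes, 17492 had RefSeq starts of 1 strand, and the others were left out. Those with at least 10 kb of body beyond the 2500-bp windows numbered 9352, and 24764 peaks were counted in their bodies. Of the 9352 genes, 38.7% held at least 1 peak without p300. The share was 50.2% (48.8 to 51.6%) among the 4906 genes with H3K4me3 and H3K27ac and without H3K27me3 at a start. It was 23.8% (21.9 to 25.8%) among 1891 genes with H3K27me3 and without H3K27ac at their starts, and 18.1% (16.4 to 19.9%) among 1925 genes with none of the 3 marks there. Summed over genes, the density was 6.29 peaks per 100 kb of body in the active class, 1.12 in the H3K27me3 class and 1.13 in the unmarked class. The remaining 630 genes, with H3K27ac in other combinations or H3K4me3 alone, had 6.54 per 100 kb. The rule excluded peaks on H3K27me3 itself, and the H3K27ac list entered both the classes and the peaks.

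Density was nearly level along active genes. It was 6.87 peaks per 100 kb at 2.5 to 5 kb downstream of the start, 6.85 at 10 to 20 kb, 6.63 at 40 to 80 kb and 5.90 at 80 to 160 kb. In genes with H3K27me3 at the start it was 0.613 at 2.5 to 5 kb and 1.76 at 40 to 80 kb. Over 5 equal segments of an active gene from its start, the shares of the peaks were 18.9, 22.6, 22.0, 20.6 and 15.9%, and the outer segments include the 2500 bp that the rule left out.

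**Figure D3:**
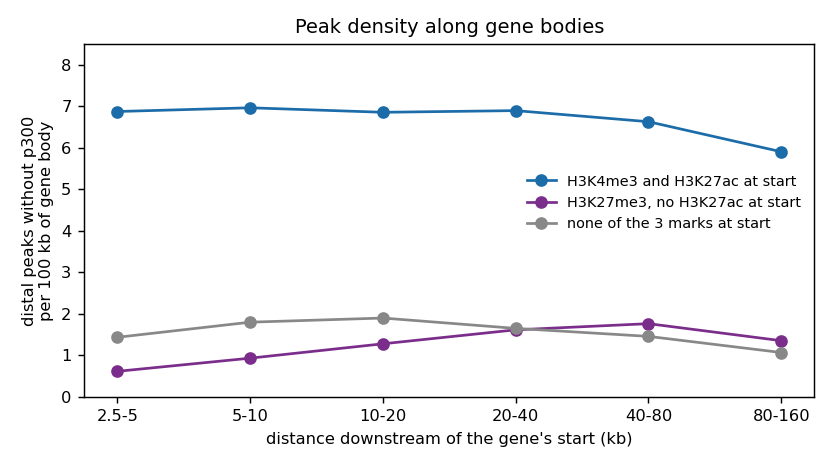
Distal H3K27ac peaks without p300 per 100 kb of gene body (vertical axis) by distance downstream of the gene's start in kb (horizontal axis), for 4906 genes with H3K4me3 and H3K27ac at the start (blue), 1891 with H3K27me3 and no H3K27ac (purple) and 1925 with none of the 3 marks (grey). The blue line stays between 5.90 and 6.96, while the others stay between 0.613 and 1.90.

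Among active genes, what else was called at the start went with small differences in these peaks, and the intervals overlapped in each pair. With N-MYC at the start 50.1% (48.5 to 51.8%) of 3490 genes held a peak, and without it 50.5% (47.9 to 53.1%) of 1416. With p300 at the start the share was 50.2% (48.7 to 51.8%), and without it 50.1% (46.7 to 53.6%). With EZH2 it was 49.2% (47.4 to 51.0%) of 2903 genes, and without it 51.7% (49.5 to 53.9%) of 2003. Densities were 6.14 against 6.67 per 100 kb for N-MYC, 6.25 against 6.47 for p300 and 6.27 against 6.32 for EZH2, with against without.

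EZH2, the catalytic subunit of Polycomb repressive complex 2 and the 1 list that the rule did not use, was called at 18 of the 49583 peaks (0.0363%, 0.0230 to 0.0574%). It was called at 4 of 850 distal peaks with p300 (0.471%, 0.183 to 1.20%) and at 47.9% of H3K27ac peaks on H3K4me3. Over all 87072 H3K27ac peaks it was called at 7818 (8.98%, 8.79 to 9.17%). Of these, 7659 lay on H3K4me3, so the rule itself removed most H3K27ac peaks with EZH2. Among the strongest of the 18 was chr6:125426412-125427484 on the side of Cd9 (fold enrichment 8.84), which lay 136 bp from p300 and 554 bp from H3K4me3.

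The peaks lay close together. The median gap to the nearest other such peak was 350 bp (345 to 357 bp), and 71.2% (70.8 to 71.6%) had another within 1000 bp. An H3K27ac peak of any other kind lay within 1000 bp of 15.5% (15.2 to 15.9%). A distal peak with p300 lay that near to 2.25% and a peak on H3K4me3 to 5.24%. Counting any H3K27ac neighbour, 77.2% (76.8 to 77.5%) had one within 1000 bp, against 83.5% (80.9 to 85.9%) of distal peaks with p300. When H3K27ac peaks within 1000 bp of each other were joined, a step added after seeing the data, 19017 of 39842 joined regions met the rule. These regions held 71.7% of the peaks, had a median width of 545 bp against 3855 bp for the 615 joined distal regions with p300, and consisted of a single peak in 59.5% of cases. A further 16.1% of the peaks fell in joined regions that reached a p300 peak.

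At a spacing of 12.5 kb, 92.1% (91.9 to 92.4%) of the peaks had another, against 93.5% (93.3 to 93.7%) when all H3K27ac peaks were taken as the set. The peaks formed 11133 clusters of median size 2. Clusters of at least 10 peaks numbered 1229 and held 46.2% of the peaks, and those of at least 20 numbered 365 and held 23.2%. Among all H3K27ac peaks these shares were 59.6 and 38.6%. The peaks without p300 are a part of that set, and leaving out the others can only lower their neighbour shares and cluster sizes. These values therefore cannot show which set was more clustered. Counting any H3K27ac neighbour within 12.5 kb, the share was 96.2% (96.0 to 96.3%) for the peaks without p300. It was 96.0% (94.5 to 97.1%) for distal peaks with p300 and 93.5% for all H3K27ac peaks. Peaks in the clusters of at least 10 lay inside protein-coding genes in 70.3% (69.8 to 70.9%) of cases, against 59.8% (58.3 to 61.3%) of the 3905 isolated peaks. Their median widths were 374 and 304 bp and their median fold enrichments 3.84 and 3.74. Of the 1229 large clusters, 46.4% (43.6 to 49.2%) spanned a p300 peak and 35.6% (32.9 to 38.3%) an H3K4me3 peak. Counted peak by peak, p300 lay within 12.5 kb of 37.0% (36.6 to 37.4%) of the peaks and more than 100 kb away from 12.2%, with a median distance of 20431 bp.

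The largest cluster held 100 peaks over 163 kb inside Gse1, which encodes a component of a histone deacetylase complex, and the peaks covered 55.7% of that span. Of the 5 largest, the next held 91 peaks over 197 kb inside Vps13d, a lipid transfer gene, and its neighbour Dhrs3, a retinal reductase. The third held 90 peaks over 174 kb outside genes, assigned to Runx1 and Setd4. The others held 86 peaks each, over 202 kb at Agpat3, Trappc10 and Rrp1 and over 175 kb at Dgkd, Usp40 and Sag. These 5 clusters spanned 7, 1, 1, 6 and 7 p300 peaks in that order.

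Each peak was next assigned to the protein-coding gene that held its midpoint or, outside genes, to the gene with the nearest end. Of 21887 protein-coding genes 33.2% received at least 1 peak, 19.4% at least 3, 6.68% at least 10 and 2.62% at least 20. The peaks were concentrated, as 888 genes (4.06%) held 50% of them. The gene with the most was Runx1, a transcription factor required for blood stem cells and thymocytes, with 150 peaks. Of these, 56 lay inside its 225 kb and 94 upstream, up to 377 kb away. Their fold enrichments had a median of 3.86 and a maximum of 11.4, and 0 of the distal peaks with p300 were assigned to Runx1. H3K27ac peaks that also overlapped N-MYC are in neither group, and at Runx1 2 such peaks overlapped p300, a peak with a fold enrichment of 14.5 inside the gene and a peak with 5.44 upstream. Gse1 followed with 137 peaks, all inside the gene (38.8 per 100 kb, maximum fold enrichment 8.76). The growth-arrest gene Gadd45g was the third with 119, all outside its 1.80 kb, of which 116 lay downstream, up to 325 kb away. Zmiz1, a transcriptional coactivator that works with NOTCH1 in T cells, had 117, with 67 inside and 49 upstream.

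**Figure D4:**
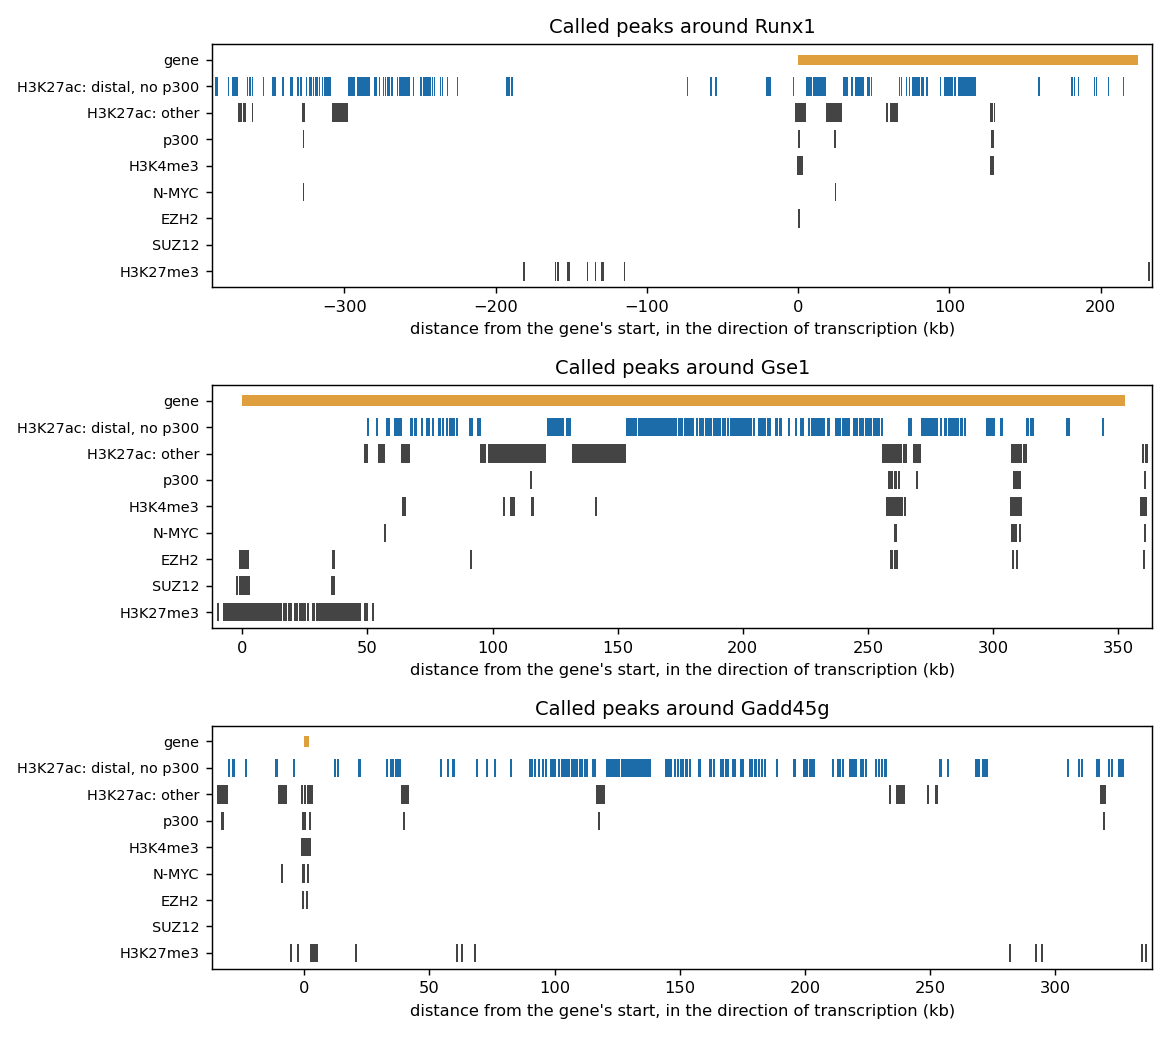
Called peaks around Runx1, Gse1 and Gadd45g, drawn to scale by distance from the gene's start in kb, with the gene as an orange bar, distal H3K27ac peaks without p300 in blue and the other peaks in grey. At Runx1 the blue peaks form a group inside the gene and another upstream, at Gse1 they fill the body beyond a start covered by H3K27me3, and at Gadd45g they lie downstream of the gene.

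The other genes among the 20 with the most peaks had varied roles. Rftn1, a lipid raft protein of lymphocytes, had 109 peaks, 96 of them inside (48.7 per 100 kb). The Rac activator Prex1 had 90, and also the most distal peaks with p300 in this group, 5. Nck2, an adaptor of T-cell receptor signalling, had 73. Map3k1, a kinase upstream of JNK, had 92, of which 86 lay upstream at 26.0 to 235 kb. Ssbp3, a partner of LDB1 complexes, had 76 and Chst11, a chondroitin sulfotransferase, 88 (40.2 per 100 kb). Mtss1, an actin-binding protein, had the highest density in the gene body of the 20, 52.5 per 100 kb, with 83 peaks. Long genes with lower density were Wwox (83 peaks, 8.65 per 100 kb), Nav2 (90, 13.7), St6galnac3 (80, 9.49) and Sorcs2 (92, 24.1). Lipc, which encodes hepatic lipase, had 75, all inside, Vps13d had 100 and Atxn7l1 75, and Sdk2, an adhesion gene, had 79, of which 74 lay upstream.

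Myc, the relative of MYCN, had 85 peaks, all outside the gene at 52.5 to 444 kb, with a median fold enrichment of 4.26 and a maximum of 8.12. A cluster of 74 of them spanned chr15:62075808-62190609 and included no peak of p300, N-MYC, H3K4me3, EZH2 or H3K27me3. The lncRNA gene Pvt1, next to Myc, held 84 peaks outside protein-coding genes, the most of any lncRNA, and was named after its values were seen. Each of these 84 peaks was also assigned to the protein-coding gene with the nearest end. The counts at Pvt1 and Myc can therefore include the same peaks and are not separate groups. How many peaks they share was not counted.

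The T-cell transcription factors on a list of 22 held many of these peaks. At least 1 peak was assigned to 21 of them, at least 3 to 18 and at least 10 to 15, with a median of 13.5 peaks per gene against 0 over all protein-coding genes, of which 33.2% had 1 or more. Their gene bodies held 11.4 peaks per 100 kb, against 3.11 over all genes and 16.4 in a list of thymic stroma genes. These densities use whole gene lengths. The 6.29 of the genes with active starts above uses only body beyond the 2500-bp windows, so it is not measured in the same way. The median length of the listed factors was 64.5 kb, against 17.2 kb over all protein-coding genes. After Runx1 came Nfatc1, a calcium-regulated factor, with 69 (44 inside), Ikzf1, the lymphoid zinc finger factor IKAROS, with 40 (34 inside, 38.6 per 100 kb), and Ets1 with 38 (22 inside). Id2, an inhibitor of E proteins, had 36, all upstream of the gene. Runx3, which acts in CD8 lineage choice, had 31, and Bcl11b, which fixes T-cell identity, had 23, with 7 inside and 16 downstream.

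Gata3, required for CD4 cells, had 18 peaks, of which 16 lay downstream, and H3K27me3 at a gene end. Lef1 and Tox had 17 each, Tcf7, which encodes TCF1, had 14 with 9 inside, Ets2 had 13, and the E-protein pathway genes Id3 and Tcf3 had 11 each. Foxo1 had 10, and Myb and Tcf12 had 6 each. Satb1, Nfatc3 and Zbtb7b had 2, 1 and 1, and Hhex had none. Distal peaks with p300 were assigned to 11 of the 22 genes, with the most at Lef1 and Foxo1 (3 each).

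Of 30 T-cell receptor and surface genes, 20 had at least 1 peak, 18 at least 3 and 13 at least 10, with a median of 4.5. Their bodies held 11.5 peaks per 100 kb and their median length was 18.6 kb. The kinase gene Fyn had 30 peaks, 26 inside. Ptprc, which encodes the phosphatase CD45, had 25, and Cd247, the zeta chain of the T-cell receptor complex, had 23, all inside (25.2 per 100 kb). S1pr1, the receptor for thymic egress, had 21 and Ccr7, a homing receptor, 19.

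The signalling genes Prkcq and Lcp2 had 17 and 11 peaks, and the surface genes Cd28, Cd6, Thy1, Cd2 and Cd5 had 15, 15, 14, 12 and 12. Dntt had 7, Lat 5, Ccr9 4 and Lck 3. Cd4 had 2 and Zap70 had 1. The 10 genes with no peak were Cd3e, Cd3d, Cd3g, Cd8a, Cd8b1, Cd27, Il7r, Rag1, Rag2 and Ptcra, so the compact CD3 genes had acetylated ends without assigned distal peaks. Over both T-cell lists 41 of 52 genes had a peak. With every gene counted that held a peak or had an end within 50000 bp of one, this was 44 of 52, against 57.0% of all protein-coding genes. Counts of this kind were also high outside the T-cell lists, with 14 of 16 MYC targets and housekeeping genes and 10 of 12 myeloid genes. They were 8 of 11 for thymic stroma genes, 6 of 10 for B-cell genes and 3 of 12 for genes of other tissues.

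Notch pathway genes had a peak in 12 of 14 cases, with a median of 8 peaks. The coactivator gene Maml3 had 67, all inside its 418 kb, and Notch2 had 32, all inside. Of 18 follicular helper and activation genes 13 had a peak (median 2.5), led by the adhesion receptor Cd44 with 12 and the interleukin receptor Il2rb with 11. Of 16 MYC targets and housekeeping genes 10 had a peak (median 1), although all 16 had H3K27ac at a gene end. Odc1, the ornithine decarboxylase of polyamine synthesis, had 36, of which 33 lay upstream, and Actb had 9.

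Medians per gene were lower in the lists of other cell types than in the T-cell lists, while the shares of genes with a peak lay on both sides of the 33.2% of all genes. The lists also differed in median gene length. It was 15.7 kb for B-cell genes, 5.21 kb for other tissues, 12.7 kb for myeloid and 29.2 kb for stroma genes. For T-cell transcription factors it was 64.5 kb and for T-cell receptor and surface genes 18.6 kb. The part of length in these medians was not tested. Of 10 B-cell genes 2 had a peak, the most being 4 at Blnk. Of 12 genes of other tissues 2 had a peak, Sox2 with 3 and Myod1 with 1. Among 12 myeloid genes 6 had a peak (median 0.5), with 39 at Cebpb, of which 34 lay downstream of the gene, and 5 at Itgam. Among 11 thymic stroma genes 6 had a peak (median 1), with 38 at Pecam1, an adhesion gene of endothelial and blood cells, of which 35 lay inside, and 11 at Pdgfrb. The bodies of the stroma genes held 16.4 peaks per 100 kb, above both T-cell lists, with the highest density of that list at Pecam1 (57.3). Myeloid and B-cell gene bodies held 1.67 and 0.270 per 100 kb.

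**Figure D5:**
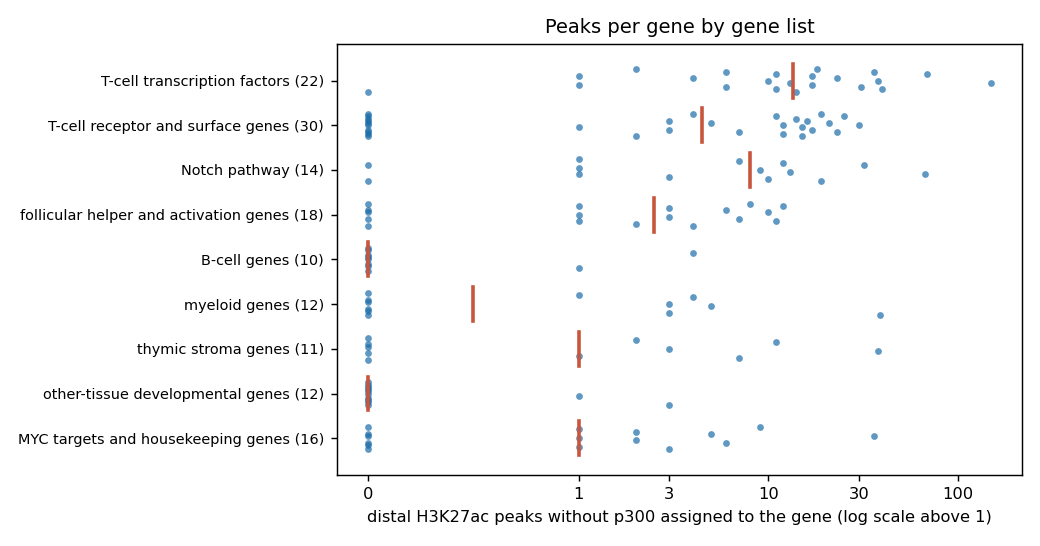
Number of distal H3K27ac peaks without p300 assigned to each gene (horizontal axis, log scale above 1) for 9 gene lists, with the number of genes in brackets, points for genes (spread vertically for visibility) and a red bar at the median. Medians run from 0 for B-cell genes and genes of other tissues to 13.5 for T-cell transcription factors, with Runx1 at 150.

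Across autosomes the peaks made up 51.6% (chromosome 7) to 62.9% (chromosome 18) of the H3K27ac peaks, and their density ran from 12.3 per Mb on chromosome 3 to 31.6 per Mb on chromosome 11. Chromosome 12 had the most per protein-coding gene, 3.35, and chromosome 7 the fewest, 1.56. The X chromosome held 507 peaks, or 2.97 per Mb and 0.525 per protein-coding gene, below every autosome, and all H3K27ac peaks there were also sparse at 6.79 per Mb. On X 43.7% (40.9 to 46.6%) of the H3K27ac peaks were distal peaks without p300, with a median fold enrichment of 4.24, and 39.6% of them lay inside protein-coding genes, against 52.8 to 75.2% on single autosomes. The lncRNA gene Firre, on X, held 21 of them and was named after its values were seen. The Y chromosome held 4 of the peaks.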

How the data were processed

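Peak lists of 7 immunoprecipitation samples were used, each in the layout of a narrowPeak file without header. FastQC, Bowtie2, SAMtools, MACS2 and deepTools and the builds mm10 and GRCm38 are named, per the submitters' processing notes, and their versions, the use of the inputs and any pooling are not given in the sources used here. The fold enrichment deposited by the authors is a linear ratio. The p-value and q-value are deposited as −log10 values, the smallest −log10 q of the H3K27ac list being 2.00, and a deposited score repeats the q-value and was not used. The lists hold no read counts, so depth is unknown, and a missing peak is a missing call.

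Overlap meant at least 1 bp. Ends of 49943 RefSeq genes and bodies of 21887 protein-coding genes came from the GRCm38.p6 table. No genome sequence was used, so the planned motif search at summits was replaced by RefSeq start windows. Interval functions were written in Python 3.11.15 (numpy 2.4.6, pandas 2.3.3, scipy 1.17.1) and tested on simulated data. The 9 gene lists, the peaks studied and the alternatives were chosen with earlier results of these data known. Named genes were the 20 with the most peaks, T-cell list genes with at least 3, the 2 leading genes of each other list, and the 5 strongest, widest and most remote peaks and 5 largest clusters. Some genes and peaks that this rule names are not reported here.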

Additional observations from a re-analysis of the deposited data

How the results depend on the processing

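Alternatives were computed for 9 results, 40 values in all, of which 20 kept within the interval of the reported value (counts within 1.5 times) and 20 moved out of it. With H3K27ac peaks of a q-value of at most 1e-05, 31454 peaks were left, with a median width of 458 bp and fold enrichment of 4.29, as weaker peaks were left out by construction; 87.5% then had another within 12.5 kb and 37.6% had p300 that near. With a gene end window of 5000 bp the share inside genes was 68.1%, the median fold enrichment 3.85, the share with a neighbour 91.2% and the share near p300 32.8%. With ends of protein-coding genes alone these were 62.8%, 3.85 and 93.1%, the share near p300 staying within its interval. A clustering distance of 5000 bp gave 86.2%. Joining H3K27ac peaks within 1000 bp before applying the rule, chosen after seeing the data, gave 19017 regions, 65.0% inside genes, a median width of 545 bp and fold enrichment of 3.95, 67.1% with a neighbour, 29.0% near p300 and 0.0684% with EZH2. Requiring an overlap to cover 50% of the narrower peak moved none of the 7 results it was applied to. Where no construction is named, the cause was not tested. No paired analysis was possible because each antibody had 1 library. Unknown depth limits every statement on a missing p300 call.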
